A study of Mus musculus with 14 samples.

Results

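The genes described here encode proteins of the lysosome, the acidic compartment in which cells break down material taken up from outside and worn-out parts of their own. The set holds 37 genes chosen by symbol, of 40123 symbols in the expression table. The rule uses no measured value, but the genes were chosen with earlier results of these data known. It was divided into 9 members that are typically strong in macrophages, microglia or osteoclasts (phagocyte-enriched: Cd68, Ctss, Ctsc, Ctsh, Ctsz, Ctsk, Lgmn, Tcirg1 and Atp6v0d2) and 28 that most cells express. They were measured by RNA sequencing in retinal veins of 9-month-old mice, dissected as 4 major veins per mouse, in 9 libraries of DBA/2J and 5 libraries of DBA/2J-Gpnmb+/SjJ, labelled normotensive control. All mice received sodium fluorescein (0.33 mg per g body weight) 5 minutes before death, so that vessels could be seen for dissection. DBA/2J is an inbred strain that lacks functional Gpnmb and develops raised intraocular pressure with age. The control strain shares the DBA/2J background, its Tyrp1 mutation included, and differs by a working Gpnmb allele. By its title the study asks about pressure, the blood-retinal barrier and the death of retinal ganglion cells.

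Lysosomal enzymes are made in the endoplasmic reticulum, sorted by mannose 6-phosphate receptors and matured by cleavage at low pH. The vacuolar proton pump (V-ATPase) acidifies the lumen, and the transcription factors TFEB and TFE3 switch on many lysosomal genes together through a promoter element known as CLEAR. In the retina and its vessels all cells carry lysosomes, while microglia and perivascular macrophages hold many, and cathepsin S and CD68 are commonly used to mark those cells.

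Values are as deposited: their low values step as kallisto estimated counts divided by a factor for each library, and they are called scaled counts below. Library totals ran from 14806322 to 22159797 scaled counts, and the estimated depth from 8931961 to 33786239 reads. All 37 members passed the filter of 1 or more in at least 5 libraries, and the least detected, Atp6v0d2, still had at least 13 estimated reads in every library. All 12 pan-endothelial markers were detected in every library, at 0.0942% to 0.337% of scaled counts in DBA/2J and 0.0965% to 0.142% in controls. Rod markers, which veins should lack, took 2.23% to 6.11% in DBA/2J and 1.8% to 3.83% in controls. Lens markers took 0.000695% to 0.69% in DBA/2J and 5.09% to 9.92% in controls, with all 8 lower in DBA/2J. The part of rod tissue in the results below was not tested. Fits with the mean of the pan-endothelial or the lens markers as a covariate are given below. Lens markers separate the strains in every library, so the lens fit cannot tell lens tissue from strain. In whole tissue of this kind, fewer cells of a type and less RNA per cell cannot be told apart.

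The promoter windows of the members bear on the CLEAR element. RefSeq (GRCm38.p6) gave windows from 250 bases before to 50 bases after the transcription start for 30 of the 37 members. The E-box CACGTG, a palindrome that reads the same on both strands, was present in a window of 11 of these 30, and in 8.09% of all 27025 genes of that table. Its longer form TCACGTGA, which contains it and forms the centre of the CLEAR element, was present in 6 members (Ctsa, Ctsd, Gla, Cln3, Mcoln1 and Atp6v0d1), and in 1.12% of all genes. None of the 7 phagocyte-enriched members with a window held the longer form, and Lgmn alone among them held CACGTG. Windows are shown for Gla, Lgmn and Ctsc, which rose in DBA/2J, and for Ctsd, the member of highest level per length, with TCACGTGA or CACGTG in capitals. The window of Gla lies at chrX:134600956-134601255 on the reverse strand and that of Ctsd at chr7:142387778-142388077 on the reverse strand. Lgmn has an upstream start with a window at chr12:102439679-102439978 on the reverse strand and a downstream start at chr12:102439043-102439342 on the reverse strand. The window of Ctsc lies at chr7:88277835-88278134 on the forward strand.
Gla: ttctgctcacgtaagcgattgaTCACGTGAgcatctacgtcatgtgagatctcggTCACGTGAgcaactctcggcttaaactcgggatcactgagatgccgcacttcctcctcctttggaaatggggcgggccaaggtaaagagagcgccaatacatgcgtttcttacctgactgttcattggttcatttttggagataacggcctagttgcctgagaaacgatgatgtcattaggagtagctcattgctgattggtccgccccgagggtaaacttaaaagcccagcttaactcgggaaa
Ctsd: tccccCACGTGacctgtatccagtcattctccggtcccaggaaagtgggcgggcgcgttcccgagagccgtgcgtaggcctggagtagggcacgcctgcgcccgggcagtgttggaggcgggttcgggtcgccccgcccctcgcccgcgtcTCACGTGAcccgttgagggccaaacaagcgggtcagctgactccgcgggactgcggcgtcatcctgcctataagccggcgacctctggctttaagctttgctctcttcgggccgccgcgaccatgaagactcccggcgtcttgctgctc
Lgmn upstream start: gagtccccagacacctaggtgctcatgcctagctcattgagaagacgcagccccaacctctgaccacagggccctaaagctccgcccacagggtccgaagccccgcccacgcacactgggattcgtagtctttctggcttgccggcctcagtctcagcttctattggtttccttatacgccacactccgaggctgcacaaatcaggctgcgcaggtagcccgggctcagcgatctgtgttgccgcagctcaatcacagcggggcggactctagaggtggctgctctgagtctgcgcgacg
Lgmn downstream start: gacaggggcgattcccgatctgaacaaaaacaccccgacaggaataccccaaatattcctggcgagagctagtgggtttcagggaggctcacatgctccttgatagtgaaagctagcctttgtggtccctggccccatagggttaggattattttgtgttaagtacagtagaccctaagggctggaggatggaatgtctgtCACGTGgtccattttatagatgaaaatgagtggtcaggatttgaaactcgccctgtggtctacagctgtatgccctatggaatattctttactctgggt
Ctsc: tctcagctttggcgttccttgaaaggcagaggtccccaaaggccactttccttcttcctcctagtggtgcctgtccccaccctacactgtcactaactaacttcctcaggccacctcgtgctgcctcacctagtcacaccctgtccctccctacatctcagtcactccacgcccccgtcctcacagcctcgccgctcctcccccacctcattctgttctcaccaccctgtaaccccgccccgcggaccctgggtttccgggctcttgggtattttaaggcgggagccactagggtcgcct
Gla thus carries 2 copies of the longer form, Ctsd 1 copy and 1 further CACGTG, the downstream start of Lgmn a single CACGTG, and Ctsc neither. Neither window of Tfe3 held CACGTG.

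In DBA/2J veins 5 of the 37 members rose and none fell at an adjusted p under 0.05 (limma on log2(value + 1), 28 with a positive log2 fold change). The 5 were Lgmn (asparaginyl endopeptidase) and Ctsc (cathepsin C) among the phagocyte-enriched members, and Tfe3 (transcription factor), Galns (a sulfatase) and Gla (alpha-galactosidase A) among the broad ones. Of all 29166 genes tested, 12.1% rose and 7.2% fell, and of the 13400 coding genes at the level of the least abundant member or above, 22.4% rose and 9.23% fell. The members' share of 13.5% was therefore not above that of coding genes of such levels. The median log2 fold change was 0.26 over the members, 0.50 over the 9 phagocyte-enriched ones and 0.25 over the 28 broad ones, against 0.05 over all genes tested and 0.19 over those coding genes. The count depended on scaling. It was 15 under scaling of every library to its total, a choice that moved the median of all genes to 0.194, against 5 with quantile normalization and 3 after median-of-ratios rescaling. The count over all 29166 genes moved as well, from 3518 as deposited to 5428, 2740 and 3169 in these fits, in that order. Leaving out control sample 1 gave 9 members that rose, leaving out control sample 3 gave 1, and leaving out control sample 4 gave 2. Of all genes 3974, 2283 and 2573 rose in these fits. Leaving out DBA/2J sample 5, 6, 7 or 9 gave 3 members, with 3017, 2867, 2917 and 3318 of all genes.

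**Figure D1:**
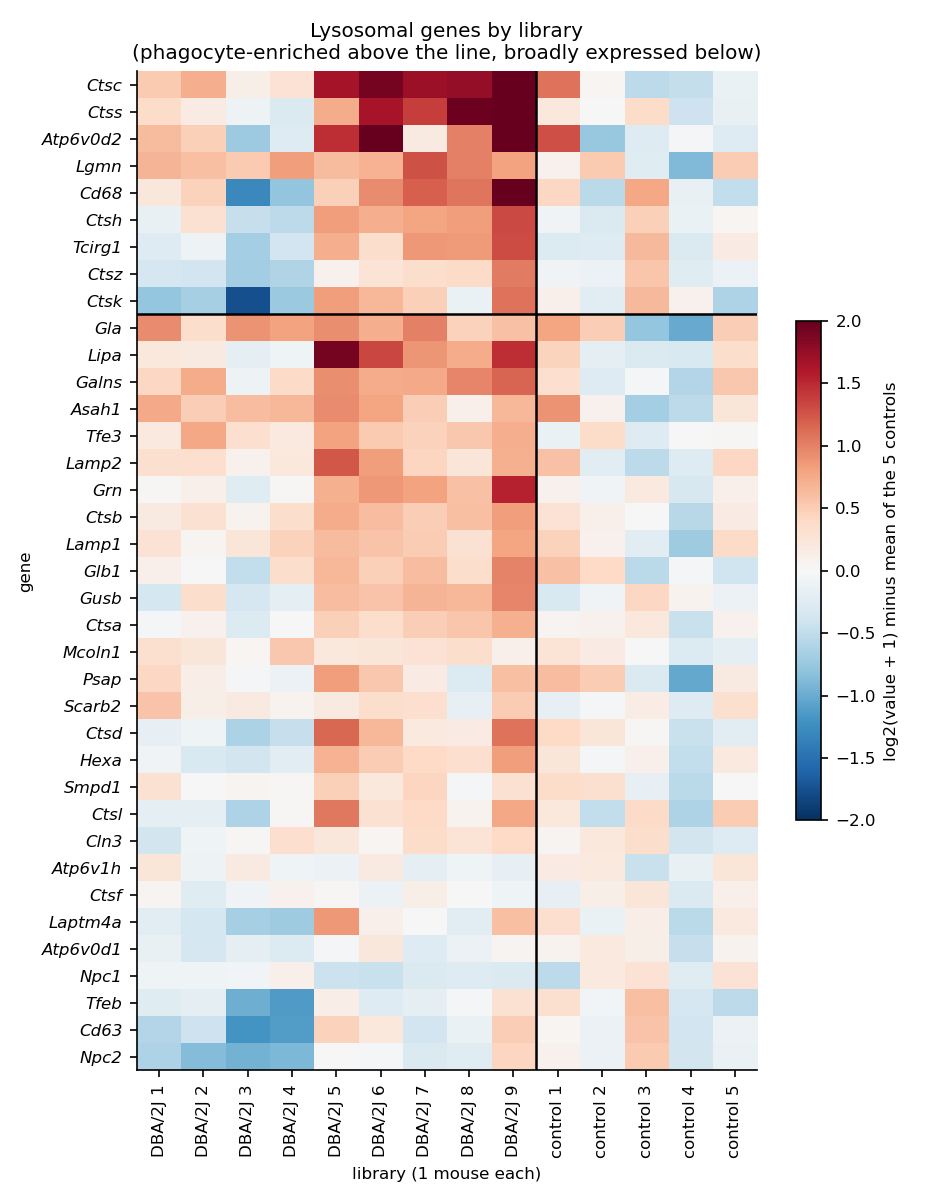
Heat map of the 37 members (rows) in 9 DBA/2J and 5 control libraries (columns); colour gives log2(value + 1) minus the mean of the 5 controls, cut at 2 in either direction, with phagocyte-enriched members above the horizontal line. DBA/2J samples 5 to 9 are red for most members, while samples 1 to 4 are paler and blue for many, Ctsk, Cd63, Npc2 and Ctsz among them.

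DBA/2J libraries differed among themselves in this gene set. In DBA/2J samples 5 to 9 the members above the highest control numbered 25 (67.6% of 37), 20 (54.1%), 21 (56.8%), 15 (40.5%) and 25 (67.6%), in sample order. In samples 1 to 4 they numbered 5 (13.5%), 4 (10.8%), 2 (5.41%) and 5 (13.5%). Among the 13400 coding genes of like level the shares above the highest control were 26.0%, 20.4%, 27.3%, 34.7%, 39.8%, 40.9%, 34.8%, 25.8% and 37% in samples 1 to 9. The members thus lay under the coding-gene share in samples 1 to 4 and over it in samples 5 to 9, a description with no test. Members below the lowest control numbered 6 (16.2%), 4 (10.8%), 12 (32.4%) and 10 (27.0%) in samples 1 to 4, where 20.5%, 24.3%, 21.6% and 24.9% of those coding genes were, so the members' share was over the coding-gene share in samples 3 and 4 and under it in samples 1 and 2. No member was below the lowest control in samples 5 to 9, where 12.5% to 18.7% of coding genes were. Library numbers run from 31 to 39 in the same order as the samples, so library number and this split cannot be told apart. In control samples 1 to 5 the library numbers are 16, 17, 18, 28 and 30, all lower than in DBA/2J. Strain and library number therefore cannot be told apart either. What the number records is not stated in the labels. DBA/2J sample 9 gave the highest DBA/2J value for 20 of the 37 members and sample 5 for 9, and control sample 4 the lowest control value for 24.

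**Figure D2:**
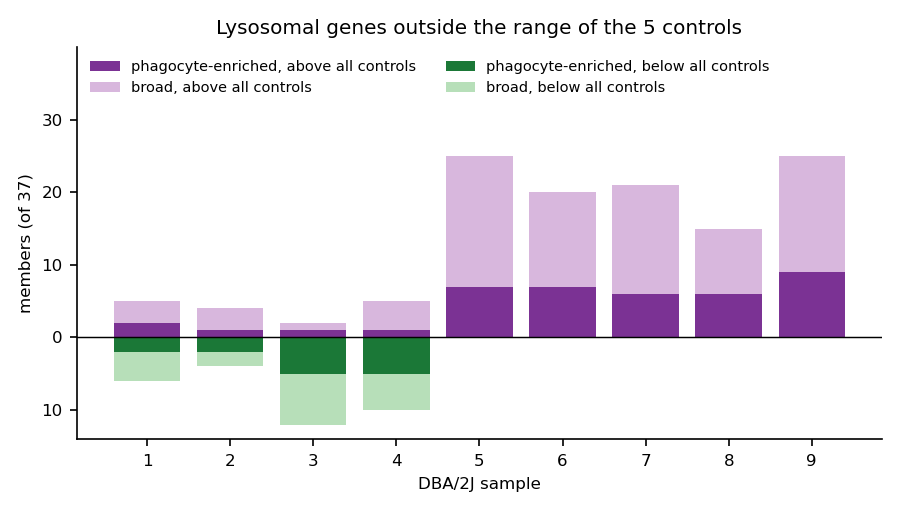
Number of members (vertical axis, of 37) above the highest control (upward bars) or below the lowest control (downward bars) in each DBA/2J sample (horizontal axis), phagocyte-enriched members in dark and broad members in light shades. Samples 5 to 9 have 15 to 25 members above and none below, and samples 1 to 4 have 2 to 5 above and 4 to 12 below.

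Lgmn was the clearest member. It encodes legumain, the asparaginyl endopeptidase that cleaves other lysosomal proteases into their mature form, and lies on the reverse strand of chromosome 12, from 102394084 to 102439813 (ENSMUSG00000021190.14, GENCODE M21 on GRCm38). It had 4215, 3996, 3801, 4727, 4079, 4299, 6371, 5315 and 4625 scaled counts in DBA/2J samples 1 to 9, against 2816, 3786, 2242, 1435 and 3764 in control samples 1 to 5. All 9 DBA/2J libraries lay above all 5 controls, the lowest of them by a narrow margin over control sample 2. Such a separation upward was seen in 1 of 37 members and in 5.7% of the coding genes of like level. The log2 fold change was 0.78 (SE 0.20, 95% interval 0.36 to 1.2, adjusted p = 0.0122, limma), and Lgmn passed in all 14 fits with 1 library left out (adjusted p up to 0.0391). With the mean of 16 phagocyte markers as a covariate it was 0.67 and did not pass (adjusted p = 0.0564), and with the lens mean 0.35 (adjusted p = 0.669).

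Ctsc encodes cathepsin C, which activates serine proteases of leukocytes. It had 426, 493, 321, 362, 946, 1126, 976, 1011 and 1212 scaled counts in DBA/2J samples 1 to 9, against 630, 306, 207, 213 and 272 in control samples 1 to 5. Samples 5 to 9 were above every control, and samples 1 to 4 lay within the control range, whose top was set by control sample 1 alone. Ctsc rose by 1.19 (SE 0.35, adjusted p = 0.0242, limma), but did not pass without control sample 3 (1.06, adjusted p = 0.0768) or control sample 4 (1.07, adjusted p = 0.0718). With the phagocyte-marker covariate the log2 fold change was 0.42 (adjusted p = 0.351), and after removal of the trend on transcript length and GC content 0.90 (adjusted p = 0.0829).

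Ctss, cathepsin S, an elastin-cutting protease of antigen-presenting cells, varied more among DBA/2J libraries than any other cathepsin of the set (coefficient of variation 63.1%, against 20.6% in controls). Its scaled counts were 1310, 1133, 945, 829, 1701, 3169, 2643, 3937 and 4794 in DBA/2J samples 1 to 9, against 1176, 1008, 1302, 762 and 911 in control samples 1 to 5. Sample 1 and samples 5 to 9 exceeded the highest control, sample 1 by a few counts. The log2 fold change of 0.90 (SE 0.37) did not pass (adjusted p = 0.0969, limma). It passed when libraries were scaled to their totals (1.07, adjusted p = 0.0319), with the length and GC trend removed (1.16, adjusted p = 0.0222) and without DBA/2J sample 4 (1.05, adjusted p = 0.048).

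The other phagocyte-enriched members did not pass. Cd68, a heavily glycosylated membrane protein of macrophage lysosomes, had scaled counts from 101 over a median of 348 to 1147 in DBA/2J, and 331, 170, 427, 225 and 176 in control samples 1 to 5. DBA/2J samples 6 to 9 exceeded the controls and samples 3 and 4 lay below them, with a log2 fold change of 0.50 (SE 0.44, adjusted p = 0.462). Ctsh (cathepsin H, an aminopeptidase) ran from 718 over a median of 1703 to 2583 in DBA/2J and was 979, 842, 1431, 938 and 1059 in control samples 1 to 5, with DBA/2J samples 5 to 9 above the controls, samples 3 and 4 below them and a log2 fold change of 0.41 (adjusted p = 0.316). Tcirg1, the V-ATPase a3 subunit known from osteoclasts, ran from 163 over a median of 333 to 642 in DBA/2J and was 215, 217, 409, 214 and 293 in control samples 1 to 5 (log2 fold change 0.30, adjusted p = 0.528). Atp6v0d2, the d2 subunit of the same pump, was the member of lowest level, from 15.4 over a median of 41.3 to 139 in DBA/2J, and 65.6, 15, 21.7, 25.8 and 21.8 in control samples 1 to 5 (0.81, SE 0.49, adjusted p = 0.264). Ctsz (cathepsin Z, a carboxypeptidase) and Ctsk (cathepsin K, a collagen-cutting protease) had means close to the controls'. DBA/2J samples 5, 6 and 9 were above the controls in Atp6v0d2, and samples 5, 7, 8 and 9 in Tcirg1. Ctsz averaged 3253 ± 1361 in DBA/2J and 3068 ± 754 in controls (SD, n = 9 and n = 5), a log2 fold change of 0.01 (95% interval -0.50 to 0.53), with DBA/2J samples 1 to 4 below every control (1862 to 2370, against 2537 to 4400) and sample 9 above at 6196. Ctsk averaged 153 ± 89.5 in DBA/2J and 145 ± 47.5 in controls (SD, n = 9 and n = 5), a log2 fold change of -0.11 (95% interval -0.96 to 0.73), with DBA/2J samples 1 to 4 below every control and samples 5, 6 and 9 above.

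**Figure D3:**
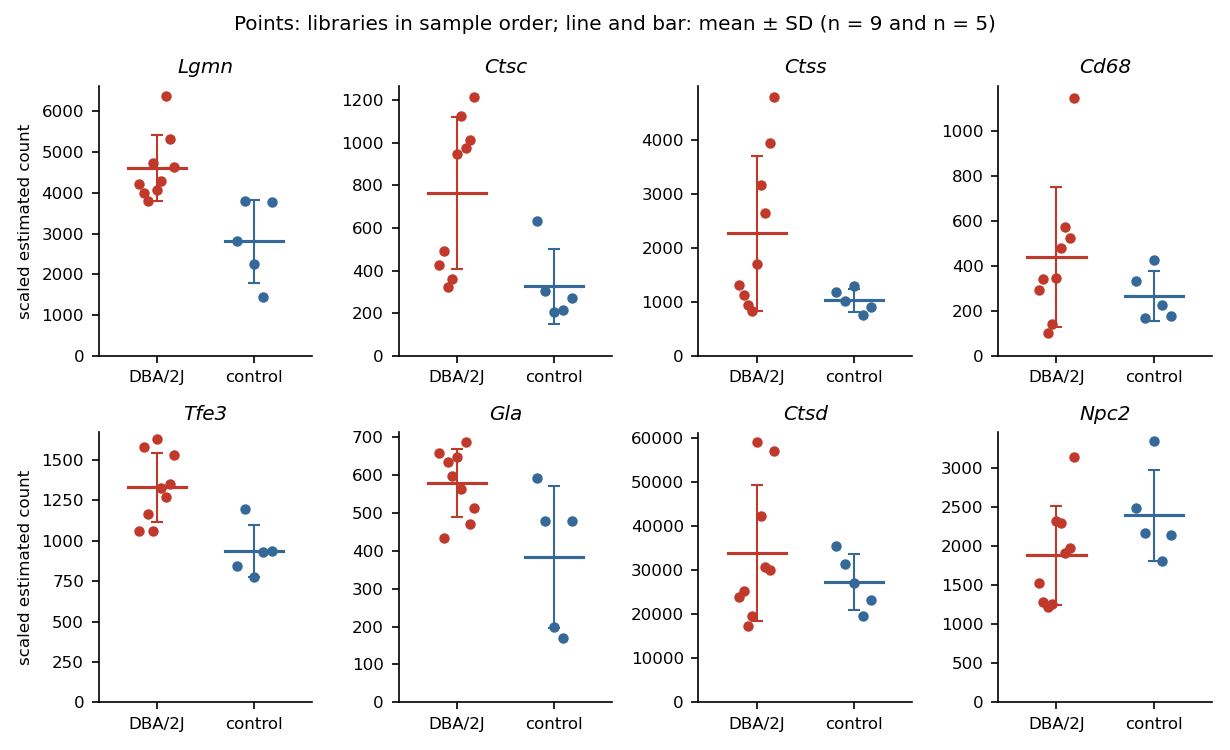
Scaled counts (vertical axis, linear, from 0) of 8 members in DBA/2J (left, n = 9) and control libraries (right, n = 5); points are libraries, and the line and bar give the mean and SD. Lgmn is the only one of the 8 in which every DBA/2J point lies above every control point, and Ctsc, Ctss and Cd68 spread widely within DBA/2J.

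Among the broad members Tfe3, Gla and Galns rose. Tfe3, a transcription factor of lysosomal genes (chromosome X, 7762560 to 7775202), had 1060, 1579, 1163, 1059, 1627, 1325, 1273, 1352 and 1532 scaled counts in DBA/2J samples 1 to 9, against 845, 1194, 776, 928 and 938 in control samples 1 to 5. DBA/2J samples 1, 3 and 4 lay under control sample 2, and the other 6 exceeded all controls. It rose by 0.50 (SE 0.14, adjusted p = 0.0205, limma), but did not pass without control sample 3 (0.44, adjusted p = 0.0614), with quantile normalization (0.36, adjusted p = 0.092), with the length and GC trend removed (0.24, adjusted p = 0.263) or with the phagocyte-marker covariate (0.39, adjusted p = 0.108). Its relative Tfeb, the master regulator of the same genes, did not pass. It had 106, 110, 63.0, 56.5, 137, 105, 110, 123 and 155 scaled counts in DBA/2J samples 1 to 9, against 156, 120, 191, 98.6 and 87.2 in control samples 1 to 5. The means were 107 ± 31.6 in DBA/2J and 130 ± 42.6 in controls (SD, n = 9 and n = 5; log2 fold change -0.28, adjusted p = 0.492).

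Gla, the alpha-galactosidase A that removes terminal galactose from glycolipids (chromosome X, 134588149 to 134601125), had scaled counts from 434 over a median of 598 to 686 in DBA/2J, and 593, 478, 200, 170 and 478 in control samples 1 to 5. Control samples 3 and 4 were the low ones, and DBA/2J samples 2, 6, 8 and 9 lay within the control range. Gla rose by 0.75 (SE 0.26, adjusted p = 0.0494, limma), and without control sample 3 or 4 the log2 fold change was 0.55 (adjusted p = 0.162) or 0.49 (adjusted p = 0.164). Leaving out DBA/2J sample 1, 3, 4, 5, 6, 7, 8 or 9 also lost the call, with little change in size (0.71 to 0.78, adjusted p from 0.0506 to 0.0795). Galns, a sulfatase that degrades keratan sulfate and chondroitin sulfate (chromosome 8, 122578242 to 122611463), ran from 166 over a median of 301 to 402 in DBA/2J and was 227, 149, 176, 119 and 260 in control samples 1 to 5. DBA/2J samples 1, 3 and 4 lay within the control range. Galns rose by 0.66 (SE 0.22, adjusted p = 0.0449, limma), but did not pass when control sample 2, 3 or 4 was left out, or DBA/2J sample 2, 5, 6, 7, 8 or 9 (0.52 to 0.66, adjusted p from 0.0613 to 0.136).

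The remaining glycosidases, Hexa (beta-hexosaminidase alpha), Glb1 (beta-galactosidase) and Gusb (beta-glucuronidase), did not pass, with log2 fold changes of 0.20, 0.34 and 0.33. In Hexa and Gusb, DBA/2J samples 5 to 9 were above every control. Hexa averaged 2744 ± 854 in DBA/2J and 2322 ± 432 in controls, and Gusb 707 ± 223 in DBA/2J and 541 ± 107 in controls (SD, n = 9 and n = 5).

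Levels of the members were compared as scaled counts per kb of the longest coding transcript. Ctsd, the aspartic protease cathepsin D, was highest in both groups, at 15980 ± 7304 per kb in DBA/2J and 12895 ± 2969 per kb in controls (SD, n = 9 and n = 5). Its scaled counts were 23970, 25288, 17378, 19590, 59251, 42466, 30836, 30002 and 57130 in DBA/2J samples 1 to 9, against 35448, 31570, 27198, 19625 and 23298 in control samples 1 to 5. Samples 5, 6 and 9 exceeded the controls and samples 3 and 4 lay below them, so the groups overlapped and the log2 fold change of 0.21 (95% interval -0.37 to 0.80) did not pass (adjusted p = 0.643). Ctsb, cathepsin B, came 5th of the 37 in both groups, at 3075 ± 542 per kb in DBA/2J and 2237 ± 452 per kb in controls. Its scaled count ran from 10944 over a median of 14577 to 18570 in DBA/2J and was 12690, 11187, 10466, 7056 and 11645 in control samples 1 to 5, a log2 fold change of 0.47 (SE 0.17) that did not pass (adjusted p = 0.058). It passed when libraries were scaled to their totals (0.64, adjusted p = 0.0039), with quantile normalization (0.60, adjusted p = 0.00758) and without control sample 1 (0.54, adjusted p = 0.0397) or DBA/2J sample 3 (0.52, adjusted p = 0.0421). Ctsf (cathepsin F) was the least variable member within DBA/2J, with a coefficient of variation of 7.78%, against 14.5% in controls, and a log2 fold change of -0.03 (95% interval -0.28 to 0.22). Ctsa (protective protein of beta-galactosidase) and Ctsl (cathepsin L) had log2 fold changes of 0.26 and 0.18 and did not pass.

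None of the 7 members grouped under lipid handling passed, with Gla and Hexa counted among the glycosidases. Psap, the precursor of the saposins that help glycolipid breakdown, came 2nd per length at 10773 ± 2802 per kb in DBA/2J and 9510 ± 3807 per kb in controls (SD, n = 9 and n = 5). Its scaled counts ran from 19302 over a median of 26177 to 41767 in DBA/2J and were 35956, 33280, 19132, 11426 and 26542 in control samples 1 to 5, so the control range held all DBA/2J libraries except sample 5 (log2 fold change 0.25, adjusted p = 0.534). Asah1, the acid ceramidase, had 594 ± 91.6 scaled counts in DBA/2J and 415 ± 190 in controls (SD, n = 9 and n = 5), a log2 fold change of 0.61 (SE 0.22, adjusted p = 0.0546). It passed without control sample 1 (0.84, adjusted p = 0.00583) or DBA/2J sample 8 (0.68, adjusted p = 0.0371). Lipa, the lysosomal acid lipase that frees cholesterol from its esters, had 696, 685, 532, 567, 2277, 1525, 1114, 1009 and 1683 scaled counts in DBA/2J samples 1 to 9, against 820, 529, 491, 486 and 768 in control samples 1 to 5. All of samples 5 to 9 exceeded every control, sample 5 most, and the log2 fold change of 0.72 (SE 0.31) did not pass (adjusted p = 0.112). Grn, progranulin, showed the same split of libraries, from 606 over a median of 1075 to 2068 in DBA/2J and from 571 to 819 in controls (0.49, adjusted p = 0.156). Smpd1, acid sphingomyelinase, averaged 5218 ± 710 in DBA/2J and 4634 ± 1141 in controls (SD, n = 9 and n = 5; 0.20, adjusted p = 0.408).

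Npc1 and Npc2, the pair that passes cholesterol out of the lysosome, had negative log2 fold changes. Npc2, the soluble carrier, had scaled counts from 1217 over a median of 1909 to 3136 in DBA/2J, and 2492, 2165, 3345, 1812 and 2141 in control samples 1 to 5. DBA/2J samples 1 to 4 lay below every control and none of the 9 above every control. The log2 fold change of -0.39 (SE 0.22) did not pass as deposited (adjusted p = 0.23), and passed with the phagocyte-marker covariate (-0.90, adjusted p = 0.00126), with the pan-endothelial covariate (-0.65, adjusted p = 0.00641) and with the length and GC trend removed (-0.76, adjusted p = 0.0122). Npc1, the membrane transporter, averaged 589 ± 76.7 in DBA/2J and 691 ± 164 in controls (SD, n = 9 and n = 5), a log2 fold change of -0.20 (adjusted p = 0.392) that passed once the length and GC trend was removed (-0.76, adjusted p = 0.0166).

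Membrane proteins likewise gave no call as deposited. Cd63, a tetraspanin of late endosomes, melanosomes and platelet granules, came 3rd per length at 6075 ± 2499 per kb in DBA/2J and 7092 ± 1905 per kb in controls (SD, n = 9 and n = 5). Its scaled counts ran from 3338 over a median of 5869 to 10738 in DBA/2J and were 7907, 7087, 11409, 5854 and 7067 in control samples 1 to 5 (log2 fold change -0.30, adjusted p = 0.471), with DBA/2J samples 1 to 4 below every control and none above. Pigment cell markers, which Cd63 can accompany, took 0.104% to 0.378% of scaled counts in DBA/2J and 0.266% to 0.427% in controls, with 2 of 8 lower in DBA/2J, and their part in the value of Cd63 was not tested. Laptm4a, a small transmembrane protein, came 4th, at 5058 ± 2033 per kb in DBA/2J and 5064 ± 1115 per kb in controls. Its scaled count ran from 5340 over a median of 7584 to 16106 in DBA/2J and was 11122, 8055, 9668, 6039 and 10009 in control samples 1 to 5 (log2 fold change -0.06, 95% interval -0.57 to 0.44). The main coat proteins of the membrane, Lamp1 and Lamp2, had log2 fold changes of 0.43 (adjusted p = 0.102) and 0.49 (adjusted p = 0.11). Both passed when libraries were scaled to their totals (0.60 and 0.66, adjusted p = 0.00991 and 0.0203). They also passed without control sample 1 (0.55 and 0.64, adjusted p = 0.0431 and 0.0406), and Lamp1 with quantile normalization (0.46, adjusted p = 0.0411). Scarb2 (LIMP-2, the carrier of glucocerebrosidase), Mcoln1 (a calcium channel) and Cln3 (a membrane protein lost in juvenile Batten disease) had log2 fold changes of 0.24, 0.26 and 0.14. With library totals Scarb2 (0.41, adjusted p = 0.0488) and Mcoln1 (0.43, adjusted p = 0.024) passed. The broad V-ATPase members Atp6v0d1 and Atp6v1h had -0.12 (95% interval -0.40 to 0.16) and -0.02 (95% interval -0.30 to 0.27).

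**Figure D4:**
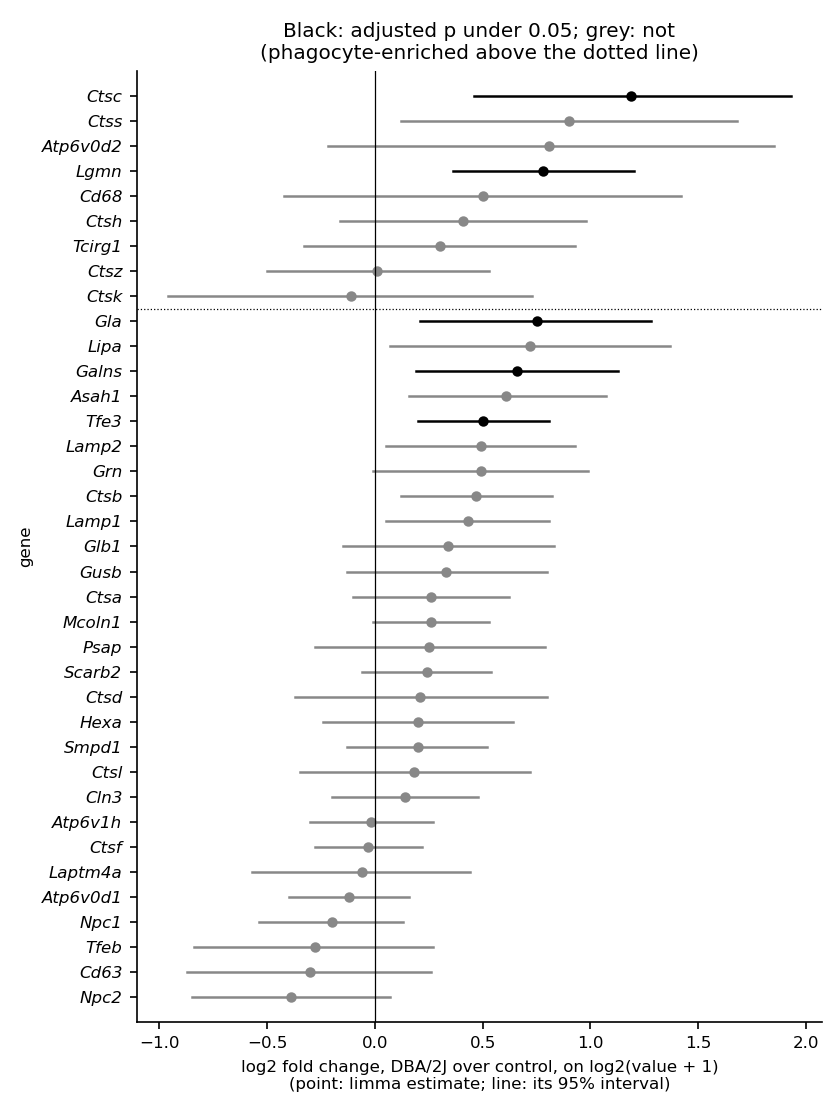
Log2 fold change of each member in DBA/2J over control (horizontal axis, on log2(value + 1)), with points for the limma estimate and lines for its 95% interval; black marks an adjusted p under 0.05. Lgmn, Ctsc, Gla, Galns and Tfe3 are black, and the medians lie at 0.50 for the phagocyte-enriched members above the dotted line and 0.25 for the broad ones below it.

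Markers of macrophages and microglia moved in part with the members. Of 16 such markers, none of them a member, 4 rose and none fell (median log2 fold change 1.06). Among coding genes at the level of the members 22.4% rose and 9.23% fell. None of the 16 markers was at 0 in any library. Their summed level took 0.0152% to 0.0888% of scaled counts in DBA/2J and 0.0116% to 0.0217% in controls. Their mean log2 level was 7.25, 7.52, 6.80, 6.95, 8.03, 8.77, 8.75, 9.26 and 9.50 in DBA/2J samples 1 to 9, against 6.89, 6.87, 7.53, 6.73 and 6.49 in control samples 1 to 5. Samples 1 to 4 thus lay within the span of the controls, and samples 5 to 9 above it. Markers of some other cell types, but not all, were also higher in samples 5 to 9. Of the 12 pan-endothelial markers 4 rose and none fell (median log2 fold change 0.42). Their mean log2 level spanned 9.60 to 10.11 in DBA/2J samples 1 to 4 and 10.50 to 11.64 in samples 5 to 9, against 9.69 to 10.46 in controls. That of 5 fibroblast markers, none of which passed, spanned 6.28 to 7.04 in samples 1 to 4 and 7.61 to 8.98 in samples 5 to 9. In controls the fibroblast mean spanned 6.84 to 7.82. Of 8 Müller glia markers 5 rose and none fell (median log2 fold change 0.83), and their mean spanned 12.11 to 12.58 in samples 1 to 4 and 12.61 to 13.04 in samples 5 to 9, against 11.77 to 12.34 in controls. In the remaining lists the ranges of these libraries overlapped. The mean of 8 rod markers spanned 14.71 to 15.71 in samples 1 to 4 and 14.37 to 15.15 in samples 5 to 9. In the same order, mural markers spanned 8.95 to 9.65 and 9.42 to 10.86, and pigment cell markers 8.48 to 9.23 and 9.22 to 10.42. Lens markers spanned 3.97 to 11.5 and 3.67 to 12.23. Apart from the covariate fits on phagocyte, lens and pan-endothelial markers, the part of these cell types in the members' values was not tested. The summed level of the 9 phagocyte-enriched members took 0.0462% to 0.113% in DBA/2J and 0.0358% to 0.0505% in controls, and that of the 28 broad members 0.541% to 1.03% in DBA/2J and 0.422% to 0.683% in controls.

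Across the 9 DBA/2J libraries, 18 of 37 members followed the phagocyte-marker mean at an adjusted p under 0.05 over 37 relations (Pearson, two-sided exact permutation test), all with positive r. They comprised 8 of the 9 phagocyte-enriched members, Lgmn being the exception, and 10 of the 28 broad ones. Spearman's test called 21, of which 17 were shared. Among the 21, Npc1 alone ran against the markers (rho = -0.75, exact permutation adjusted p = 0.0449). Its Pearson r of -0.74 did not pass (exact permutation adjusted p = 0.0562). The median r was 0.93 over the phagocyte-enriched members and 0.60 over the broad ones, against 0.17 over 13349 coding genes of like level, of which 17.6% had an r at or above 0.76, the lowest of the members that passed. Ctss was closest (r = 0.99, rho = 0.97, exact permutation p = 4.13e-05 and 0.000165, adjusted p = 0.00068 and 0.00204). Ctsz had r = 0.96 and rho = 0.97 (exact permutation p = 1.1e-05 and 0.000165, adjusted p = 0.000408 and 0.00204), although its mean did not differ between the groups at the threshold. Ctsc had r = 0.95 and rho = 0.98 (exact permutation p = 0.000344 and 4.96e-05, adjusted p = 0.00255 and 0.00184), and Cd68 r = 0.92 and rho = 0.95 (exact permutation p = 5.51e-05 and 0.000353, adjusted p = 0.00068 and 0.00326).

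Among the broad members, Ctsa (r = 0.94), Gusb (0.91), Grn (0.91) and Npc2 (0.87) were the most similar to the markers. Lgmn had r = 0.55 and rho = 0.53 (exact permutation p = 0.124 and 0.148, adjusted p = 0.176 and 0.182), Tfe3 r = 0.53 and rho = 0.55 (exact permutation p = 0.142 and 0.133, adjusted p = 0.194 and 0.169), and Gla r = -0.32 and rho = -0.35 (exact permutation p = 0.387 and 0.359, adjusted p = 0.462 and 0.428). Of the 5 members that rose, Ctsc and Galns (r = 0.85) therefore passed this test and Lgmn, Tfe3 and Gla did not, a contrast that was itself not tested. The largest gap between neighbouring libraries in the marker mean was 0.722 of a range of 2.7. The relation also follows library number, since samples 5 to 9 are the high ones, and with 5 libraries below that gap and 4 above it, too few on either side, no value within either is given. Without samples 8 and 9, the farthest from the median, r was 0.97 for Ctss, 0.98 for Ctsz, 0.97 for Ctsc, 0.90 for Cd68 and 0.54 for Lgmn, and 9 members passed. With 1 library left out between 10 (without DBA/2J sample 9) and 23 (without DBA/2J sample 5) passed, and 11 without DBA/2J sample 3.

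**Figure D5:**
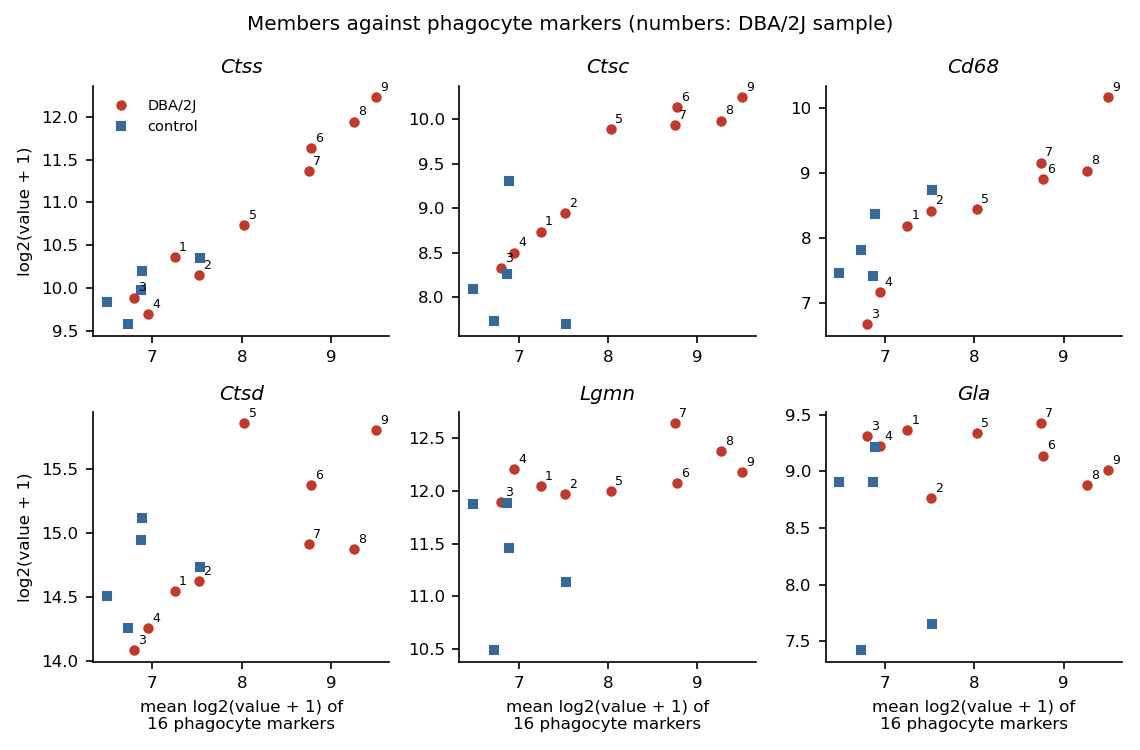
Log2(value + 1) of 6 members (vertical axes) against the mean log2(value + 1) of 16 phagocyte markers (horizontal axes) in DBA/2J libraries (numbered circles) and controls (squares). Ctss, Ctsc and Cd68 climb with the markers (r = 0.99, 0.95 and 0.92 over the 9 DBA/2J libraries), while Lgmn and Gla do not pass (r = 0.55 and -0.32).

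With the phagocyte-marker mean as a covariate, Gla (0.90, adjusted p = 0.0467) and Asah1 (0.76, adjusted p = 0.0463) were the members higher in DBA/2J, and Ctsk (-1.04, adjusted p = 0.0265), Ctsz (-0.64, adjusted p = 0.00309), Npc2, Cd63 (-0.90, adjusted p = 0.00777) and Tfeb (-0.77, adjusted p = 0.0417) were lower. In that fit 10.9% of all genes tested were higher and 9.86% lower. Of the 13400 coding genes of like level, 2745 were higher and 2109 lower, beside 2 and 5 of the 37 members. When the mean of the pan-endothelial markers was the covariate, Lgmn (0.71, adjusted p = 0.0238), Ctsc (0.82, adjusted p = 0.0476) and Tfe3 (0.49, adjusted p = 0.0304) were higher and Npc2 was lower, against 11.5% and 8.78% of all genes tested. With this covariate 2855 of the 13400 coding genes of like level were higher and 1761 lower.

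Other genes of the lysosomal pathway were read from 5 lists with 89 members in all, of which 27 rose and 8 fell (30.3% and 8.99%), with a median log2 fold change of 0.29, against 22.4% and 9.23% and a median of 0.19 among coding genes of like level. In 11 of them all DBA/2J libraries lay above all controls and in 1 below, against 5.7% and 3.4% of coding genes of like level. After removal of the length and GC trend 7 rose and 5 fell (7.87% and 5.62%), where 7.63% of those coding genes rose and 10.4% fell, and 5.62% and 7.16% of all genes tested. The median transcript length was 2993 nucleotides in these lists, 2412 in the 37 members and 3194 in the coding genes of like level.

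Of 28 further hydrolases 12 (42.9%) rose and none fell (median 0.42), against 22.4% and 9.23% of coding genes of like level. After removal of the trend 5 (17.9%) rose, against 7.63% of those coding genes. Tpp1, a tripeptidyl peptidase lost in a childhood form of Batten disease, had 1836, 1614, 1562, 2221, 1886, 1933, 2044, 1624 and 2084 scaled counts in DBA/2J samples 1 to 9, against 1108, 823, 486, 645 and 1414 in control samples 1 to 5. All DBA/2J libraries were above all controls. Samples 1 to 4 spanned 1562 to 2221 and samples 5 to 9 spanned 1624 to 2084. Tpp1 rose by 1.15 (SE 0.20, adjusted p = 0.00144, limma), and by 0.74 after removal of the trend (adjusted p = 0.00456). Acp2, lysosomal acid phosphatase, averaged 2018 ± 239 in DBA/2J and 1119 ± 374 in controls (SD, n = 9 and n = 5) with no overlap, and rose by 0.91 (adjusted p = 0.00314), with 0.39 after removal of the trend (adjusted p = 0.0703). Man2b1, lysosomal alpha-mannosidase, averaged 1234 ± 293 in DBA/2J and 695 ± 133 in controls (SD, n = 9 and n = 5) and rose by 0.81 (adjusted p = 0.00553), and by 0.41 after removal of the trend (adjusted p = 0.0356).

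Of 17 further membrane proteins 4 (23.5%) rose and 1 (5.88%), Lamp3, fell, against 22.4% and 9.23% of coding genes of like level. Slc29a3, a nucleoside transporter, averaged 214 ± 53.8 in DBA/2J and 93.3 ± 27.5 in controls (SD, n = 9 and n = 5; log2 fold change 1.2, adjusted p = 0.00216, no overlap). Clcn7, the chloride-proton exchanger, rose by 0.68 (adjusted p = 0.00692), and had 0.25 with the length and GC trend removed (adjusted p = 0.155). Laptm5, a lysosomal protein of blood cells, ran from 50.6 over a median of 93.1 to 418 in DBA/2J and was 48.3, 32.7, 35, 19.5 and 39.4 in control samples 1 to 5, with no overlap, and rose by 1.88 (SE 0.46, adjusted p = 0.00923, limma). With the phagocyte-marker covariate Laptm5 had 0.70 and did not pass (adjusted p = 0.109). With the length and GC trend removed 2 genes of the list were higher (Laptm5 at 1.74 and Slc29a3 at 0.65) and 2 lower (Lamp3 and Slc38a9, an amino acid transporter, named after its value was seen, at -0.75, adjusted p = 0.0116).

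The V-ATPase list moved in both directions, with 3 of 14 subunit genes (21.4%) higher and 5 (35.7%) lower (median -0.05). Of coding genes of like level 22.4% rose and 9.23% fell. Atp6v0a1 (0.81, adjusted p = 0.00432), Atp6v0a2 (0.95, adjusted p = 0.0048) and Atp6v1a rose, and have transcripts of 4008, 5345 and 4234 nucleotides. Of the 5 that fell, Atp6v1g1, Atp6v0c, Atp6v1f and Atp6v1e1 have transcripts of 1135, 1183, 806 and 1312 nucleotides, and Atp6v1d one of 3667. Atp6v1g1 averaged 6120 ± 893 in DBA/2J and 10496 ± 2171 in controls (SD, n = 9 and n = 5), with no overlap (log2 fold change -0.77, adjusted p = 0.00246). After removal of the length and GC trend no subunit gene of the list rose, and Atp6v1g1 (-0.40, adjusted p = 0.0219) and Atp6v1d (-0.82, adjusted p = 0.000804) fell.

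Sorting genes rose in 6 of 14 (42.9%) and fell in none (median 0.46), against 22.4% and 9.23% of coding genes of like level. Sort1, sortilin, rose by 0.99 (adjusted p = 0.00215), Ap3d1, a subunit of the AP-3 adaptor, by 0.56 (adjusted p = 0.0105) and Gga3, a Golgi adaptor, by 0.59 (adjusted p = 0.0138). Ap3d1 did not pass with the phagocyte-marker covariate (0.45, adjusted p = 0.0576), nor Gga3 with quantile normalization (0.39, adjusted p = 0.11). None of the 14 rose after removal of the length and GC trend, where Sort1 had 0.43 (adjusted p = 0.0528). In that fit 1 of the 14 (7.14%) fell, against 10.4% of coding genes of like level. It was Gga2, named after its value was seen (-0.57, adjusted p = 0.0111). The list of 16 lysosomal signalling genes included the transcription factors Mitf and Tfec. Of these 16, 2 (12.5%) rose and 2 (12.5%) fell, against 22.4% and 9.23% of those coding genes. Flcn, folliculin, which acts upstream of TFE3, rose by 0.76 (adjusted p = 0.0109), and the Ragulator subunits Lamtor4 (-0.67, adjusted p = 0.012) and Lamtor2 (-0.64, adjusted p = 0.0248) fell. These 3 did not pass after removal of the trend, where Lamtor2 turned to 0.09. Without control sample 3, 18 genes of the 5 lists rose and 2 fell, and Lamtor2 lost its call without control sample 3 (-0.45, adjusted p = 0.0832) or 4 (-0.63, adjusted p = 0.0548).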

How the data were processed

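RNA from 4 veins of 1 mouse per library was made into cDNA with a SMART-Seq v4 kit and into libraries with Nextera XT, per the labels' protocols. Reads were quantified with kallisto on GRCm38 and GENCODE M23, per the series design text, whereas GRCm39 stands beside kallisto and sleuth per the submitters' processing notes, and the build used is not settled. The deposited table holds a normalized signal per gene, not counts: 19.2% to 22.2% of values above 0 per library were whole multiples of its most frequent low value, taken as 1 read (tolerance 0.01), so no count model was used, and depth is an estimate. Of 40149 rows, 26 had dates in place of symbols and were dropped (at most 0.201% of a library).

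Genes at 1 or more in at least 5 of 14 libraries were tested on log2(value + 1) with limma 3.58.1 (trend, two-sided, R 4.3.3), 9 DBA/2J against 5 control libraries, with Benjamini-Hochberg adjustment over all 29166 genes and a threshold of 0.05. The procedure was tested on simulated data. Lengths, GC content and coordinates are from GENCODE M21 on GRCm38. Correlations used exact permutation (scipy 1.17.1). The libraries are separate mice, and no pair within a group was a duplicate (smallest chi-square per degree of freedom 17.5). Alternatives were other pseudocounts, filters, scalings, a length and GC trend, marker covariates, subsets of controls, a replicate block and each library left out. Values are given for members that passed, phagocyte-enriched members, the 5 broad members of highest level per length, Tfeb and Tfe3, and up to 3 genes of lowest p from each other list. Other values, such as those of Asah1, Lipa and Npc2, were chosen after they were seen. The members and lists were chosen with earlier results of these data known.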

Additional observations from a re-analysis of the deposited data

Results flagged for a closer look

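Of 74 groups examined (37 members in 9 DBA/2J and 5 control libraries), 7 held a library far from the others, judged by its gap to the nearest library over the range of its group. Chance alone gives about 1 in 20 for independent groups of normally distributed values. These groups share the same libraries and were judged on scaled counts, so the 7 cannot be set against that rate. DBA/2J sample 9 stood high for Ctsz (6196 scaled counts, gap over range 0.521), Grn (2068, 0.525) and Cd68 (1147, 0.55). Control sample 1 stood high for Ctsc (630 scaled counts, 0.766) and Atp6v0d2 (65.6, 0.788), control sample 3 high for Ctsz (4400, 0.83) and control sample 4 low for Atp6v0d1 (2252, 0.765).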

How the results depend on the processing

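Among all genes tested (3518 higher, 2101 lower in DBA/2J), the counts were 5428 and 1308 with each library scaled to its total, 2740 and 2868 with quantile normalization, 3169 and 2470 with median-of-ratios rescaling, 1603 higher with the length and GC trend removed, 1 and 8 with the lens covariate, 2334 and 1373 with controls 1 to 3 alone, and 1673 and 773 with controls 4 and 5 alone. Members that rose (5) numbered 3 without a filter, 15 with library totals, 3 with median-of-ratios rescaling, 2 with the length and GC trend removed, 2 with the phagocyte-marker covariate, 0 with the lens covariate, 3 with the pan-endothelial covariate, 1 with controls 1 to 3 and 2 with controls 4 and 5. Members that fell (0) numbered 2, 5 and 1 with the length and GC trend removed, the phagocyte-marker covariate and the pan-endothelial covariate, in that order. Of the other lysosomal genes (27 higher, 8 lower), 7 and 5 passed with the length and GC trend removed, 0 and 0 with the lens covariate, 14 and 5 with controls 1 to 3, 13 and 1 with controls 4 and 5, and 3 were lower with library totals. Ctsz turned to -0.64 with the phagocyte-marker covariate and Lamtor2 to 0.09 with the length and GC trend removed. The causes were not tested. With 1 library left out, all genes ranged from 2283 to 3974 higher and from 1247 to 2341 lower, members from 1 to 9 higher, the other lysosomal genes from 18 to 28 higher and 2 to 9 lower, and members that followed the phagocyte markers (18) from 10 to 23, with 9 when the 2 farthest libraries were left out. Replicate numbers did not pair the samples: same-numbered libraries had correlations of deviations from -0.154 to 0.0191, and 0 of 5 controls correlated best with its own number. With the replicate block, to which DBA/2J samples 6 to 9 add nothing for want of a control of the same number, 1408 and 1057 of all genes passed, 0 members, and 6 and 5 of the other lysosomal genes. Lens markers separate the strains in every library, so the lens covariate and the strain cannot be told apart. Depth is an estimate, and Atp6v0d2 had as few as 13 reads in a library.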

Other observations

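Lamp3, a lysosomal membrane protein of dendritic and epithelial cells, was chosen here after its values were seen, as the only gene of the further membrane list that fell. It averaged 6.9 ± 5.74 scaled counts in DBA/2J and 39.4 ± 20.2 in controls (SD, n = 9 and n = 5). Control samples 1 to 5 had 38.2, 47.6, 58.3, 47.1 and 5.56, and control sample 5 lay within the DBA/2J range of 0 to 15.8. The log2 fold change was -2.50 (SE 0.68, adjusted p = 0.0168, limma), and -2.73 with the length and GC trend removed (adjusted p = 0.0177). With the phagocyte-marker covariate it was -1.94 and did not pass (adjusted p = 0.106). At such low values the fold change depends on the pseudocount.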
